A study of Mus musculus with 36 samples.

Results

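The transcriptional response of cultured mouse cortical neurons to 10 h of potassium chloride (KCl) was measured by mRNA sequencing in 2 samples, called A and B as in the deposited table, and compared with 6 unstimulated control samples. These are 8 of the 18 RNA samples of a series of 36 samples, which follows neurons stimulated with KCl or with brain-derived neurotrophic factor (BDNF) over time and also includes chromatin accessibility libraries. The members were taken by their labels alone, so no measured value chose them. Cells of all groups came from cortices of CD-1 mouse embryos at embryonic day 15, with the tissue of all embryos dissociated together, and were used after 7 days in vitro. Every group was first silenced with 100 µM AP-5, which blocks NMDA receptors, and 1 µM TTX, which blocks voltage-gated sodium channels. The KCl group was silenced for 2 h and then depolarised with 55 mM KCl for 10 h. KCl was added straight into the medium, and the study's methods describe no removal of AP-5 and TTX before it. The controls, 2 each for 1, 6 and 10 h, had received AP-5 and TTX for 3, 8 or 12 h in total and were treated as 1 level. The study's model pooled the controls in the same way. Neurons depolarised for 6 h (n = 2) and neurons given 10 ng/ml BDNF for 10 h (n = 2), both after the same 2 h of silencing, served to show where the KCl response at 10 h differed. KCl was given in a buffer that also held calcium, magnesium and HEPES and diluted the culture medium, and no matching buffer is described for the controls. Effects of depolarisation, of the buffer and of dilution therefore cannot be told apart.

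Raised extracellular potassium depolarises neurons, opens voltage-gated calcium channels of the L type and lets calcium enter, which activates calmodulin-dependent kinases, calcineurin and the transcription factors CREB, SRF and MEF2. Immediate early genes such as Fos and Npas4 are transcribed within minutes, and their products then act on late genes that code for secreted factors, ion channels and synaptic proteins. Such late genes include brakes on excitability, and sustained depolarisation is a classic way to study how neurons adjust their own activity.

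The KCl samples held 10434221 and 11581139 reads counted to genes and the controls 9747599 to 36699187, the deepest being a 1 h control. Replicates of the KCl group correlated at r = 0.99 over log2 values across genes, which are not independent replicates. In the 6 h KCl group, sample B stood apart, with 3.26% of its normalised counts in Gm42418, while the top gene of every other library was mt-Co1 at under 1.01%, so the differences from that group are also given without it. Neuronal markers were abundant, with a summed level of 60507 to 63003 normalised counts in the KCl samples and 55112 to 61376 in the controls, and 4 of 7 were called higher (Snap25, Syt1, Nefl, Stmn2) and 2 lower (Tubb3, Rbfox3), both lost without KCl sample B. Markers of inhibitory neurons summed to 14809 to 16172 against 11644 to 13515, and those of excitatory neurons to 6696 to 6839 against 6649 to 7641. Astrocyte markers summed to 11611 to 11674 against 13040 to 16364 and markers of dividing cells to 3277 to 3682 against 4789 to 7744, so the KCl and control ranges of both were apart, as were those of the oligodendrocyte lineage, at 6741 to 7468 against 5964 to 6453. In bulk samples, fewer cells of a type and less RNA per cell cannot be told apart.

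The response was broad and of moderate size. Of 16209 genes tested, 9274 (57.2%) passed a Benjamini-Hochberg adjusted p below 0.1 in limma, a linear model fitted across all genes and all 18 RNA samples, 4705 (29.0%) higher and 4569 (28.2%) lower, and at 8891 genes (54.9%) the 2 KCl samples did not overlap the 6 controls. The median absolute log2 difference of the called genes was 0.47, and 546 genes (3.37%) rose and 719 (4.44%) fell by at least 2-fold. The median over all tested genes was 0.01. Counts of the lists below stand beside these shares of 29.0% higher and 28.2% lower. These tests compare samples described as biological replicates in the study's text, while the labels do not say that they came from separate cultures, so the p-values measure the spread between these samples only. All differences below are on the log2 scale of normalised count + 1, which understates the change of genes with low counts, with the standard error (SE) of the fit. Sample values are normalised counts, and control values are given as the lowest, median and highest of 6.

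The highest rises joined a peptide hormone, matrix genes and classical activity genes. Crh (chr3:19693401-19695396, mm10), which codes for corticotropin-releasing hormone, measured 182 and 132 after KCl and 0, 2.30 and 3.92 in controls. Col10a1 (chr10:34389981-34397085), a collagen gene, was at 69.7 in both KCl samples against 0, 0.548 and 1.31. The controls were close to 0 for both genes and lay far below the KCl samples. Crh, Col10a1, Tnn, Cartpt, Sowahb, Alkal2, Fosb, Egr4, Ptgs2, Rrad and Irf7 had a control mean below 10 and passed the filter, a mean of 10 normalised counts over all 18 samples, only through stimulated samples, so their calls lend no support and the size of their differences depends on the pseudocount. On that scale Crh was 5.80 (SE 0.79) and Col10a1 5.58 (SE 0.50) above the controls. The transcription factor gene Fos (chr12:85473890-85477273) measured 948 and 995 against 25.1, 33.3 and 43.3, and rose by 4.80 (SE 0.15). Acan (chr7:79053483-79115099), which codes for aggrecan, the core proteoglycan of perineuronal nets, measured 507 and 297 against 7.26, 12.9 and 20.4, and rose by 4.80 (SE 0.29). Both Acan values lay above all controls although they differed from each other. Tnn, the gene of the matrix protein tenascin-N, measured 104 and 88.2 against 0, 3.16 and 5.48. Sowahb and Alkal2, a ligand gene of a receptor tyrosine kinase, completed the 12 leading rises with Pcsk1, Bdnf, Vgf, Cartpt and Nr4a1, described below. Alkal2 shares 35.1% of its exon bases with Acp1, and the strand setting of the counting is not given in the sources used here, so its reads may belong to either gene.

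Among the deepest falls, 2 genes belong to a family that limits glucose uptake and receptor recycling. Txnip (chr3:96557957-96561883) measured 84.3 and 117 after KCl against 519, 623 and 663. Arrdc3 (chr13:80883384-80896042), an alpha-arrestin that directs membrane proteins to degradation, measured 648 and 644 against 3113, 3400 and 3738. Neither gene overlapped its controls, and the KCl samples were close to each other. Txnip fell by 2.62 (SE 0.16, adjusted p = 1.38e-10 in limma) and Arrdc3 by 2.40 (SE 0.08, adjusted p = 1.52e-15 in limma), the latter 5.27-fold. Crip3, a LIM domain gene, fell further, with 9.78 and 3.27 against 54.8, 62.8 and 90.3. Rsph10b, named for the radial spoke of cilia, measured 8.56 and 4.36 against 53.7, 64.5 and 78.5, and Kif9, a kinesin gene, 19.6 and 9.80 against 52.6, 68.1 and 75.4. All of these lay below every control. The large-conductance potassium channel gene Kcnu1 fell by 2.81 and the lysosomal sulfatase gene Arsg by 2.68. Coq8a, Sbk3, Mttp, Adamts17, Tatdn3 and Iqcg fell by 2.16 to 2.34, and Iqcg shares 48.1% of its exon bases with Lrch3.

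**Figure D1:**
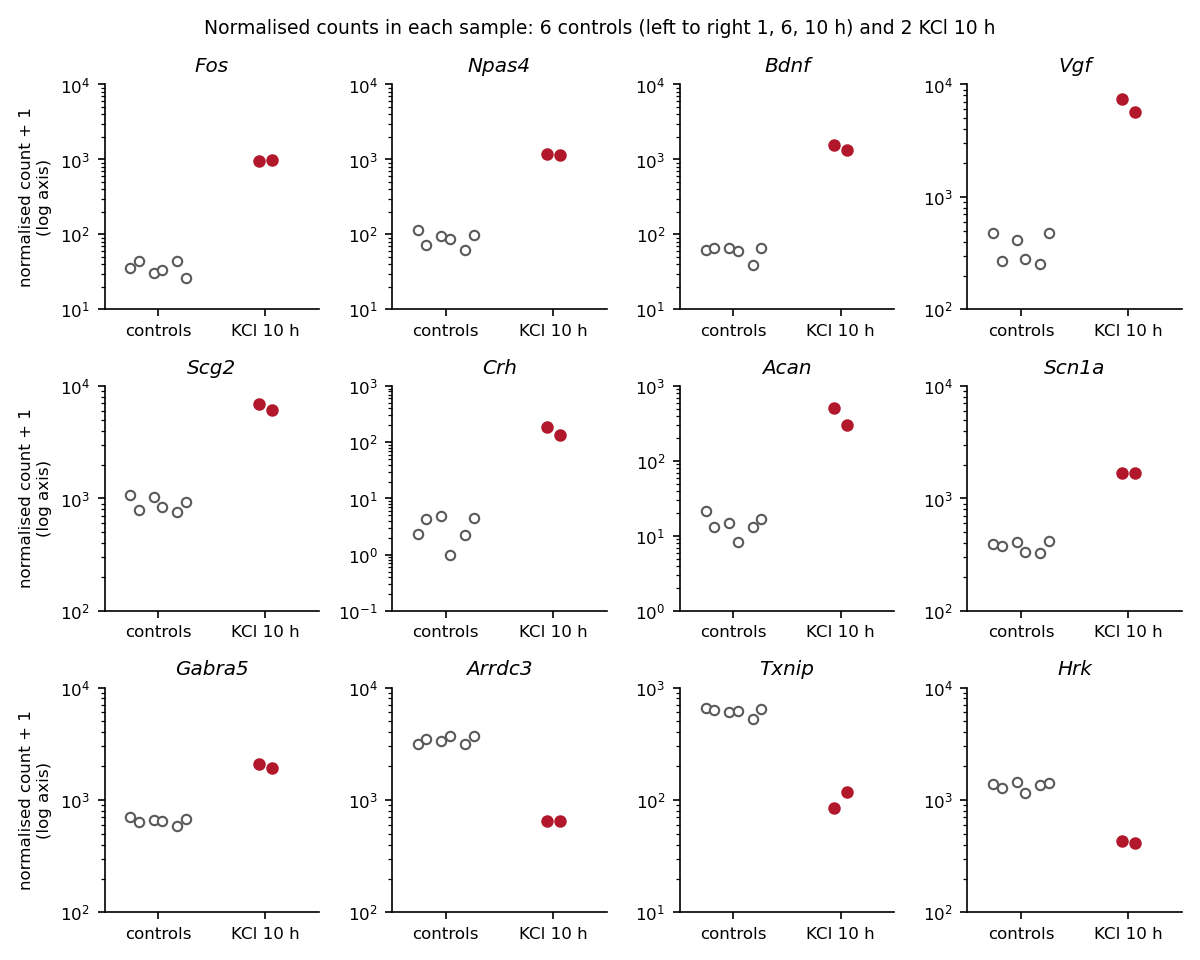
Normalised count + 1 on a log axis for 12 genes, with the 6 controls as open circles, 1, 6 and 10 h from left to right, and the 2 samples at KCl 10 h in red. Fos, Npas4, Bdnf, Vgf, Scg2, Crh, Acan, Scn1a and Gabra5 lie above every control, Bdnf for example at 1547 and 1318 against at most 65.1, and Arrdc3, Txnip and Hrk lie below every control.

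The promoters of the leading rises differed in the elements they held. RefSeq promoter windows (GRCm38.p6, from 250 bases before to 50 after the start) were matched to 10960 of the 16209 tested genes and searched on both strands for the cAMP response element TGACGTCA, the AP-1 element TGANTCA, the EGR element GCGNGGGCG, the E-box CACGTG and the sterol element TCACNCCAC. The first of these, the site of CREB, is shown for the prohormone convertase gene Pcsk1 and the peptide gene Cartpt. The second is shown for Bdnf, and these genes were among the 12 leading rises. The AP-1 element was searched with any base at N, which is A in Bdnf. It is thus wider than the strict site of Fos and Jun dimers. Capitals mark the element:
Pcsk1: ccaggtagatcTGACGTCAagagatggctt
Cartpt: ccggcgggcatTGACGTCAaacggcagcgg
Bdnf: acccacaaaaaTGAATCAaggtaatttca
They lie at chr13:75089768-75089797 on the plus strand, chr13:99900777-99900806 on the minus strand and chr2:109676869-109676897 on the plus strand. The elements start 78, 112 and 152 bases before the start used for each window. For Cartpt and Bdnf that start, and the stretch shown, lie inside the gene coordinates given below, not upstream of the whole gene. Of the 12 leading rises, 10 had a window. The cAMP response element was in 2 of these 10, the AP-1 element in 1 and the EGR element in 1 (Nr4a1). Of the 12 largest falls under the same naming rule, 10 had a window as well. There the cAMP response element was in 0, the AP-1 element in 1 (Coq8a), the EGR element in 2 (Arrdc3, Coq8a) and the E-box in 1 (Adamts17). The AP-1 element was thus as frequent in the windows of these falls as in those of the rises. The cAMP response element was in 3.58% of all windows, in 5.15% of the 369 windows of genes that rose by at least 2-fold and in 2.42% of the 496 windows of genes that fell by at least 2-fold. For the AP-1 element in this wide form the shares were 5.78%, 8.40% and 6.65%. For the EGR element they were 12.7%, 11.4% and 11.7%, and for the E-box 11.6%, 11.9% and 9.27%. The sterol element was in 1.40% of all windows and, of the 17 cholesterol genes matched, in that of Hmgcs1. These shares describe letters in 1 window a gene and were not tested.

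**Figure D2:**
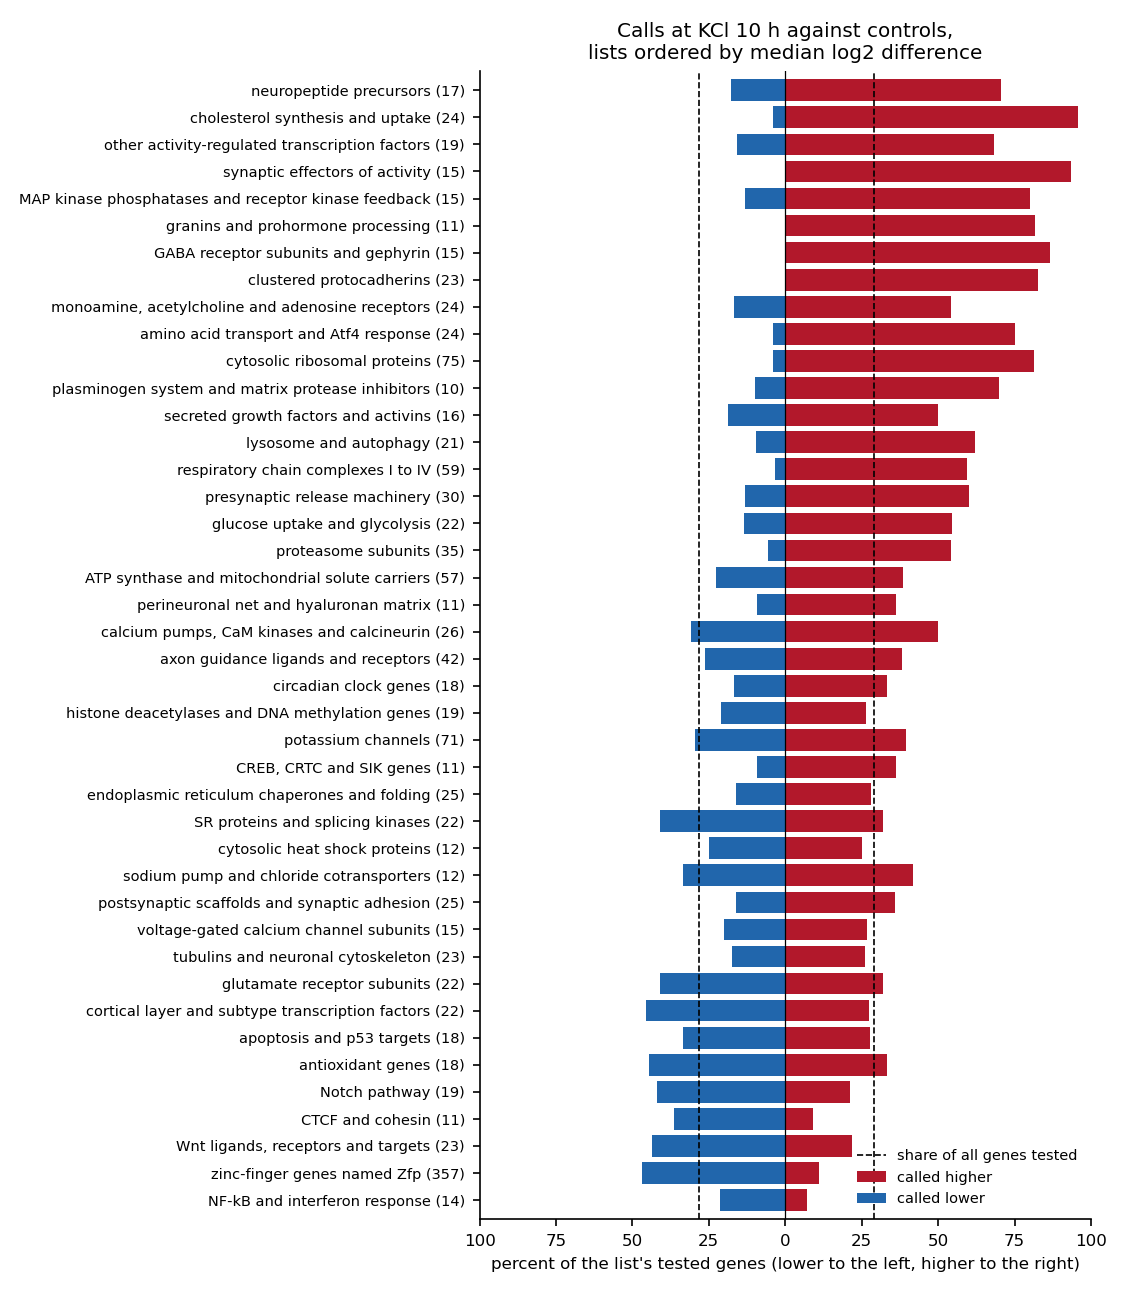
Percent of the tested genes of each list called higher (red, to the right) and lower (blue, to the left) at KCl 10 h, lists of at least 10 tested genes ordered by their median log2 difference, with the number tested in brackets. Dashed lines give the shares of all genes, 29.0% and 28.2%, and the bars of cholesterol synthesis (23 of 24 higher) and of zinc-finger genes (167 of 357 lower) reach far beyond them on opposite sides.

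Transcription factors of the immediate early response were still raised at 10 h, but not all of them. Of 7 AP-1 factors, 5 rose and 2 fell (median 1.24), and of 19 other activity-regulated factors 13 rose and 3 fell (median 0.91). Npas4 (chr19:4984355-4990316), a neuron-specific factor induced by calcium, measured 1182 and 1132 against 60.1, 90.5 and 114. Nr4a1 (chr15:101254269-101274795), an orphan nuclear receptor gene, measured 1045 and 985 against 50.9, 55.9 and 64.4. Fosb measured 75.8 and 94.8 against 4.93, 6.4 and 10.8. Npas4 and Nr4a1 did not overlap their controls and rose by 3.74 (SE 0.27) and 4.15 (SE 0.11). Fosb stood 3.46 (SE 0.22) higher, but it passed the filter only through stimulated samples, so its call lends no support. Nr4a2 (2.26), Nr4a3 (2.17), Maff (2.52), the repressor Nfil3 (1.90), Junb (1.73) and Fosl2 (1.24) rose as well. Jun, by contrast, measured 978 and 951 against 1096, 1193 and 1255 and fell by 0.29 (SE 0.08). Fosl1 fell by 0.44, shares 57.2% of its exon bases with Ccdc85b and lost its call without KCl sample B, which left 1 AP-1 factor called lower.

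Most EGR genes were called higher, and the only lower call did not hold in every fit. Egr4 rose by 3.35 from 1.04, 3.45 and 10.2 to 50.1 in both samples, and Egr2 rose by 0.71. The call of Egr4 lends no support, since it passed the filter only through stimulated samples. Egr1 measured 197 and 175 against 194, 225 and 247, so its KCl samples overlapped the lowest control, and its call as lower (log2 difference -0.26, SE 0.09) was lost without KCl sample B, at -0.17. Klf10 (-0.89) and Klf2 (-1.19), Krüppel-like factors, fell.

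Genes of the CREB pathway itself varied less. Of 11 tested, 4 rose, 1 fell and 6 were not called, with a median of 0.07. The rises were those of Crem (1.77), whose short form ICER represses CREB targets, and of the salt-inducible kinases Sik1 (0.88), Sik2 (0.85) and Sik3 (1.43), which hold the CREB coactivators in the cytosol. Crem measured 369 and 444 against 105, 116 and 144, and Sik3 1723 and 1624 against 585, 610 and 675. The coactivator gene Crtc1 fell by 0.44 to 1474 and 1100 against 1575, 1756 and 1851, and Creb1 was not called (-0.06). Without the 1 h control A, 2 genes of this list were called lower.

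Negative regulators of MAP kinase signalling were mostly higher. Of 15 tested, 12 rose and 2 fell (median 0.86). Rises included the phosphatases Dusp1 (1.15), Dusp4 (1.06) and Dusp6 (0.94) and the receptor kinase antagonists Spry4 (1.40) and Spred3 (1.54). The phosphatase gene Dusp2 ran the other way, with 22.0 and 6.53 against 31.8, 41.1 and 44.6, a fall of 1.63 (SE 0.30). Spred1 was called lower by 0.17, a call lost without either KCl sample or without the 10 h control A or B, the 6 h control B or the 1 h control B, each of which left 1 gene called lower.

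**Figure D3:**
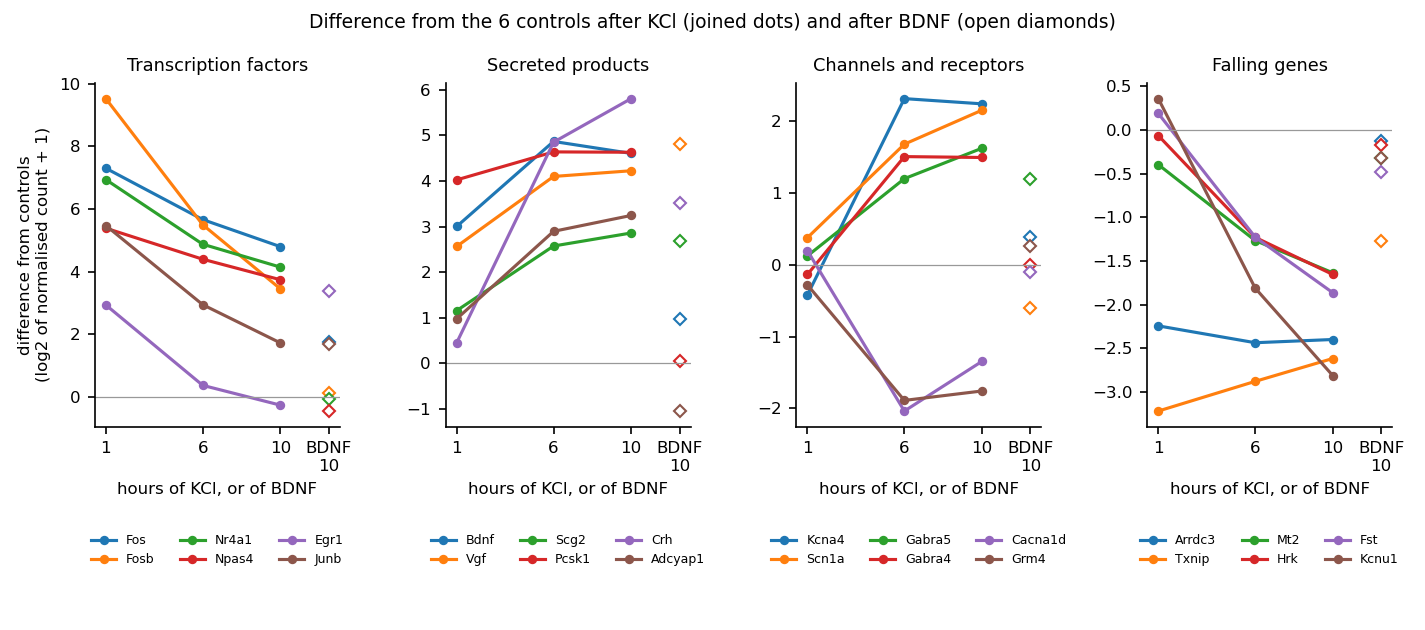
Log2 difference from the same 6 controls at KCl 1, 6 and 10 h (joined dots) and at BDNF 10 h (open diamonds) for 6 genes in each of 4 groups. At KCl 10 h Fosb stands 2.04 below its 6 h value while Bdnf and Pcsk1 stand near theirs, and Egr1 is the only transcription factor plotted that is below 0.

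Products for secretion rose together with the enzymes that mature them. Of 11 granins and prohormone processing genes, 9 rose and none fell (median 0.71). Vgf (chr5:137026392-137033351), a granin and growth factor precursor, measured 7498 and 5672 against 251, 346 and 481. Scg2, secretogranin II, measured 6850 and 6151 against 762, 887 and 1062. Pcsk1 (chr13:75089826-75134861) measured 517 and 562 against 16.6, 20.1 and 31.9. In all 3 genes the KCl samples lay above every control, with rises of 4.22 (SE 0.29), 2.86 (SE 0.16) and 4.63 (SE 0.24). The peptide amidating enzyme Pam rose by 1.31, Chgb by 1.06, the convertase gene Pcsk2 by 0.58 and the carboxypeptidase gene Cpe by 0.40, and Chga (0.11) and Pcsk1n (0.13) were not called.

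Neuropeptide precursors divided by gene, with 12 of 17 tested higher and 3 lower (median 1.13, Trh not tested). Adcyap1, the precursor of PACAP, measured 599 and 454 against 45.7, 51.6 and 72.1. Cartpt (chr13:99898489-99901091), the precursor of the CART peptide, measured 120 and 113 against 1.20, 7.03 and 10.5. Adcyap1 was raised without overlap, by 3.24 (SE 0.24). The difference of Cartpt was 4.19 (SE 0.45), but it passed the filter only through stimulated samples, so its call lends no support. Nppc, a natriuretic peptide gene, rose by 2.74 and the tachykinin gene Tac1 by 2.13. Somatostatin and neuropeptide Y mark subclasses of inhibitory neurons, and Sst measured 5889 and 5312 against 1611, 2098 and 2782 while Npy rose by 0.82. Summed markers of inhibitory neurons moved in the same samples, with Gad1 up by 0.89, Slc32a1 by 0.87 and Gad2 by 0.27, but Lhx6 and Dlx1 down by 0.39 and 0.27, the calls of Gad2 and Dlx1 being lost without KCl sample B, and their part in the peptide result was not tested. Grp, gastrin-releasing peptide, fell by 1.68 to 19.6 and 41.4 against 73.6, 95.6 and 109. Nts and Nmb fell by 0.41 and 0.70, calls lost without KCl sample A and without KCl sample B respectively.

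Of 16 secreted growth factors and activins tested, 8 rose and 3 fell (median 0.30, Gdnf and Fgf2 not tested). Bdnf (chr2:109674700-109727007), a neurotrophin that strengthens synapses, measured 1547 and 1318 against 38.5, 62.5 and 65.1. It rose by 4.60 (SE 0.19, adjusted p = 1.57e-12 in limma), 24.3-fold. Gdf10 rose by 2.04 and Igf1 by 1.42. The activin subunit gene Inhba measured 119 and 91.5 against 41.5, 47.1 and 58.9, whereas Fst, whose product follistatin binds and blocks activin, measured 67.2 and 68.6 against 236, 251 and 265. The activin gene thus stood above and its antagonist below all controls, with differences of 1.08 (SE 0.19) and -1.86 (SE 0.14). Fgf1 fell by 0.91 and Pdgfa by 0.41, and without KCl sample A 5 genes of this list were called lower.

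Genes with a known part in synaptic plasticity were nearly all higher. Of 15 synaptic effectors, 14 rose and none fell (median 0.89), 7 of them by at least 2-fold. Rgs4, which shortens signalling by G proteins, measured 2874 and 2857 against 382, 410 and 458, and rose by 2.79 (SE 0.16). Nptx2, a secreted pentraxin that gathers AMPA receptors, measured 827 and 840 against 176, 198 and 223, and rose by 2.07 (SE 0.13). Ptgs2, the prostaglandin synthase COX-2, rose by 3.06 from 0, 1.55 and 2.40 to 15.9 and 17.4. It passed the filter only through stimulated samples, so its call lends no support. Arc, which removes AMPA receptors from the membrane, measured 73.3 and 65.3 against 25.1, 34.2 and 39.4, a smaller rise of 1.06 (SE 0.15), and Homer1 rose by 0.66. Only Cpeb3 of the 15 was not called (-0.03). Groups did not overlap at 13 of the 15 genes, beside 54.9% of all genes tested.

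Of 71 potassium channel genes tested among 92 listed, 28 rose (39.4%), 21 fell (29.6%) and 22 were not called (median 0.09), the falls being near the 28.2% of all genes, and 12 rises and 4 falls reached 2-fold. Kcnk9, the two-pore leak channel TASK-3, measured 460 and 420 against 73.1, 76.8 and 87.8. Kcna4, which carries a rapidly inactivating current, measured 759 and 707 against 132, 158 and 163. Kcnj6, an inward rectifier opened by G proteins, measured 159 and 173 against 30.2, 36.2 and 50.3. All KCl values exceeded all controls, with rises of 2.48 (SE 0.12), 2.24 (SE 0.10) and 2.1 (SE 0.19). Kcnj3, the partner subunit of Kcnj6, rose by 2.21 and shares 31.1% of its exon bases with Gm26794. The falls of at least 2-fold were those of Kcnu1, which measured 6.11 and 4.36 against 34.0, 43.4 and 52.9, of the silent subunit Kcng2 (-1.31), the beta subunit Kcnab1 (-1.14) and the inward rectifier Kcnj12 (-1.04). The KCl samples of Kcnj12 overlapped its controls, of which the 10 h control A was low at 48.1 beside 81.2 to 108 in the others.

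Among 7 sodium channel subunits, Scn1a (chr2:66270778-66440840), the Nav1.1 channel of inhibitory interneurons, stood apart at 1683 and 1666 against 329, 382 and 422. It rose by 2.16 (SE 0.11, adjusted p = 1.1e-12 in limma). Scn2a was called higher by 0.18 and Scn8a lower by 0.21, calls lost without KCl sample A and without KCl sample B respectively, and Scn3b fell by 0.28. In all, 3 rose and 2 fell (median 0.11, Scn4b not tested), with 1 lower without KCl sample B.

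Calcium channel subunits were for the most part not called, with 4 of 15 higher and 3 lower (median -0.02), shares below those of all genes. Cacna1d (chr14:30039939-30491455), the L-type pore Cav1.3, was the exception in size at 271 and 194 against 494, 603 and 640. It fell by 1.34 (SE 0.13, adjusted p = 4.64e-08 in limma). The other neuronal L-type pore, Cacna1c, measured 625 and 657 against 647, 700 and 753 and was not called (-0.13). The T-type pores Cacna1g and Cacna1i fell by 0.61 and 0.54. Cacnb2 rose by 0.57 and Cacna1a by 0.38, the latter at 1049 and 712 against 636, 667 and 703. Without KCl sample A the call of Cacna1a was lost at 0.099, and 2 subunits were called higher. All 3 RGK GTPases tested, which hold calcium channels off the membrane, rose (Rem1 not tested). Rem2 measured 317 and 402 against 78.8, 109 and 147 (1.71, SE 0.21), Gem rose by 0.98 and Rrad by 1.32. The call of Rrad lends no support, since it passed the filter only through stimulated samples.

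Of 26 calcium pumps, CaM kinases and calcineurin genes, 13 rose and 8 fell (median 0.11). The sodium-calcium exchanger Slc8a1 and the calcineurin regulator Rcan2 rose by 1.09 each, and the calcium pump Atp2b2 and the kinase gene Camk1 by 0.74 each. Another exchanger, Slc8a2, fell by 0.51, the pumps Atp2b3 and Atp2b4 by 0.76 and 0.53, the calcineurin subunit Ppp3ca by 0.42 and Camk4 by 0.28, while Camk2a was not called (0.02).

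Subunits of the sodium-potassium pump went in opposite directions. Of 12 pump and chloride cotransporter genes, 5 rose (41.7%) and 4 fell (33.3%), beside 29.0% and 28.2% of all genes (median -0.02). The beta subunit gene Atp1b1, widely expressed, measured 17790 and 17474 against 7523, 8183 and 8548, a rise of 1.11 (SE 0.05), and shares 18.7% of its exon bases with Nme7. The beta subunit gene Atp1b2, used mainly by astrocytes, measured 1276 and 1064 against 2133, 2332 and 2603, and fell by 1.01 (SE 0.08). Of 6 astrocyte markers tested, 5 fell as well (Gfap by 0.98, Aldoc by 0.73, Aqp4 by 0.51, Aldh1l1 by 0.42, Slc1a3 by 0.38), Aqp4 losing its call without either KCl sample, and their part in the pump result was not tested. Slc12a5, the chloride extruder KCC2, fell by 0.68 to 1375 and 974 against 1635, 1876 and 2030. Fxyd7, a pump regulator, was called lower by 0.36, a call lost without KCl sample A or B or without the 1 h control A or B or the 6 h control A.

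Receptors for GABA, the main inhibitory transmitter, were raised as a family. Of 14 subunit genes and gephyrin, the scaffold of inhibitory synapses, 13 rose and none fell (median 0.68). Gabra5 (chr7:57407672-57510059), a subunit of extrasynaptic receptors, measured 2088 and 1941 against 582, 657 and 709. Gabra4, a subunit that assembles mainly outside synapses, measured 1485 and 1403 against 462, 504 and 556. The KCl samples lay above every control in both, and the rises were 1.63 (SE 0.07) and 1.5 (SE 0.08). Gabrb1 rose by 1.3 and Gphn by 0.51. Gabrd was called higher by 0.85 but its KCl samples, 78.2 and 43.6, overlapped the controls at 25.2, 29.4 and 45.0, and the call was lost without KCl sample A. Gabra3 (0.02) and Gabbr2 (0.05) were not called.

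Of 22 glutamate receptor genes, 7 were higher (31.8%) and 9 lower (40.9%), beside 29.0% and 28.2% of all genes (median -0.08). Grin1, the obligatory NMDA receptor subunit, measured 3118 and 2285 against 884, 988 and 1136 and rose by 1.43 (SE 0.13), with 13.5% of its exon bases shared with the antisense gene Grin1os. Its partner Grin2a rose by 0.74, whereas Grin2b, the partner that prevails in young neurons, fell by 0.38. Gria1, an AMPA receptor subunit, measured 4030 and 3448 against 4788, 5742 and 6266, a fall of 0.59 (SE 0.09). Gria2 was not called (0.08). Among the metabotropic receptors, Grm2 measured 770 and 546 against 198, 224 and 245 and Grm4 155 and 98.0 against 383, 421 and 463. These inhibitory receptors lay on opposite sides of their controls, at 1.54 (SE 0.13) and -1.76 (SE 0.12). Grm3 rose by 0.73.

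**Figure D4:**
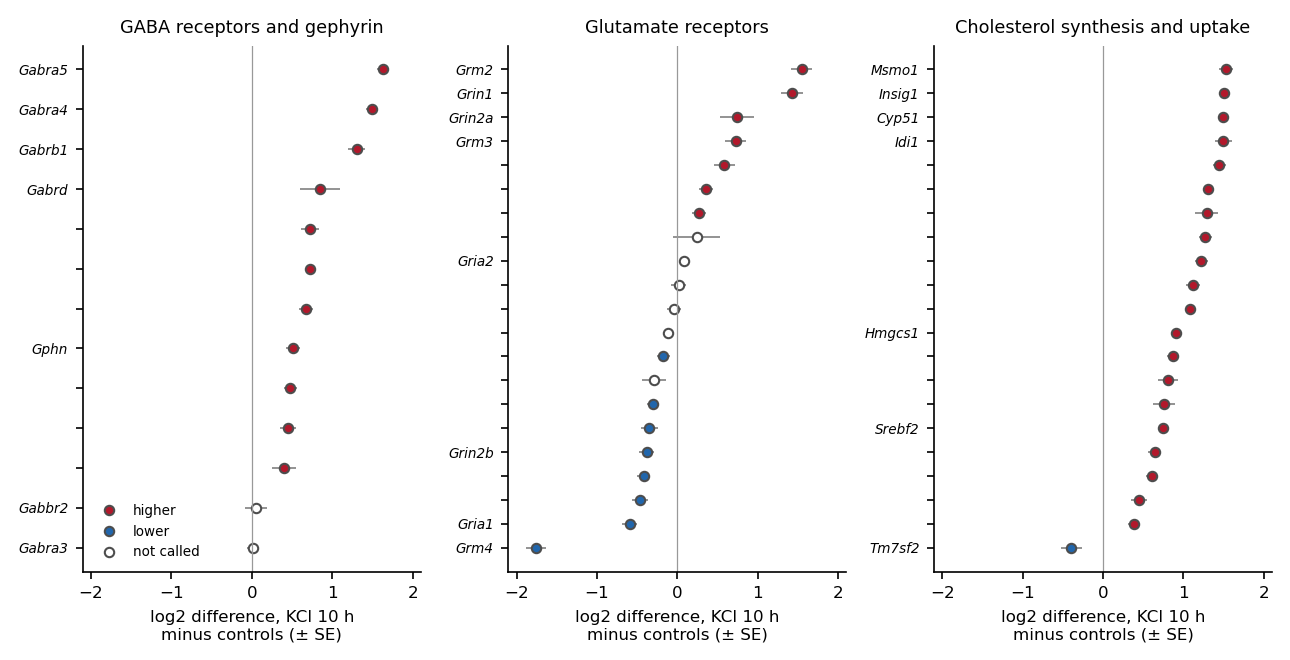
Log2 difference from controls with its SE for 13 GABA receptor genes with gephyrin, 21 glutamate receptor genes and 21 genes of cholesterol synthesis and uptake, red where called higher, blue where called lower and open where not called, with the genes described in the text labelled. The panels of GABA receptors and cholesterol genes lie almost wholly to the right of 0 (11 of 13 and 20 of 21 drawn higher), while the glutamate receptors extend from Grm4 at -1.76 to Grm2 at 1.54.

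Of 30 genes of the presynaptic release machinery, 18 rose and 4 fell (median 0.27). Rises included the vesicle protein Sv2c (1.24), the SNARE proteins Stx1a (1.05) and Snap25 (0.74), the priming factor Unc13a (1.01) and the calcium sensor Syt1 (0.63). Syn3 fell by 1.38 to 121 in both samples against 255, 315 and 382, Syn2 by 0.70, the vesicle protein Doc2b by 0.89 and the complexin gene Cplx2 by 0.67. Syn1 was not called (0.13). Postsynaptic scaffolds and adhesion molecules had 9 of 25 higher and 4 lower (median -0.02), or 2 lower without KCl sample B. Lrrtm1, an adhesion molecule of excitatory synapses, rose by 0.86, Cadm2 by 0.78 and the scaffold Shank3 by 0.57. The neuroligin gene Nlgn3 fell by 1.26 to 574 and 403 against 938, 1181 and 1327, and the scaffold Dlg4, which codes for PSD-95, was not called (0.09).

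Of 42 axon guidance genes, 16 rose (38.1%) and 11 fell (26.2%), beside 29.0% and 28.2% of all genes (median 0.11), with Sema3e (1.65), Sema7a (0.91) and Robo2 (0.70) up and Plxna2 (-0.53), Efnb3 (-0.51) and Unc5a (-0.51) down. Dcc, the netrin receptor, was called higher by 0.28 (adjusted p = 0.0756 in limma), a call lost without KCl sample A or without the 1 h control A. Of 11 perineuronal net genes, 4 rose and 1 fell (median 0.12, Has1 not tested). Beside Acan, the link protein Hapln1 rose by 1.40 to 592 and 426 against 162, 191 and 215 and the hyaluronan synthase Has3 by 0.86, while the proteoglycan Vcan fell by 0.28. Of 10 plasminogen and protease genes, 7 rose and 1 was called lower (median 0.35, Plaur, Timp1 and Mmp9 not tested), among them the metalloprotease Adamts1 (1.21). Without KCl sample B, 4 were higher, the plasminogen activator gene Plat among those lost. The lower one, Timp4 (-0.32), lost its call without either KCl sample, the 10 h control B, either 6 h control or the 1 h control B. Of 23 clustered protocadherins, which give each neuron a surface identity, 19 rose and none fell (median 0.45), none by 2-fold. Pcdhb10 (0.79) and Pcdhb16 (0.73) led them.

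Cholesterol synthesis was the most uniform pathway among the lists of more than 10 genes. Of 24 genes tested, 23 rose and 1 was called lower (median 1.10, 1 more not tested), and 14 rose by at least 2-fold. Insig1, which retains the regulator SREBP in the endoplasmic reticulum when sterols are plentiful, measured 5956 and 5931 against 2001, 2120 and 2177. Msmo1, a sterol oxidase gene, measured 5714 and 6269 against 1944, 2071 and 2226. Both genes lay above the highest control in both samples, with rises of 1.5 (SE 0.06) and 1.53 (SE 0.09). The synthetic enzymes Cyp51 (1.5), Idi1 (1.5) and Hmgcs1 (0.90) and the factor Srebf2 (0.75) rose too. Tm7sf2, a sterol reductase gene, was called lower by 0.40 at 617 and 412 against 559, 664 and 794, so the groups overlapped, and without KCl sample B none was lower.

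Alpha-arrestins with Txnip were the list with the lowest median (-1.36), with 4 of 5 lower and 1 higher. Arrdc4, which like Txnip restrains glucose uptake, fell by 1.36 to 302 and 355 against 779, 846 and 908, Arrdc2 fell by 0.47 and Arrdc1 rose by 0.60. Of 22 genes of glucose uptake and glycolysis, 12 rose and 3 fell (median 0.26). The transporters Slc2a1 (1.25) and Slc2a3 (1.07) and the enzymes Aldoa (0.79) and Tpi1 (0.73) rose. Slc2a3, the neuronal transporter, measured 2990 and 2822 against 1223, 1405 and 1481. Aldoc, also an astrocyte marker, fell by 0.73. Pfkl was called lower by 0.33, a call lost without KCl sample B.

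Amino acid transport and the response to Atf4 were higher in 18 of 24 genes and lower in 1 (median 0.39). Slc38a2, a transporter of small neutral amino acids, measured 5519 and 6672 against 2227, 2335 and 2524 and rose by 1.36 (SE 0.07). Slc7a3 (1.62), Chac1 (1.42), the asparagine synthetase gene Asns (1.13) and Atf4 itself (1.08) rose, and Phgdh, of serine synthesis, fell by 0.33. Of 8 genes of the osmotic response, 4 rose and none fell (median 0.30, Slc6a12 not tested). The taurine transporter Slc6a6 measured 5400 and 5969 against 2301, 2331 and 2586 (1.25, SE 0.07), Sgk1 rose by 1.16 and the inositol transporter Slc5a3 by 0.53, but Nfat5, the factor that governs this response, was not called (0.08).

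Housekeeping complexes rose by small amounts. Of 75 cytosolic ribosomal protein genes, 61 rose and 3 fell (median 0.38), none by 2-fold, and 38 were higher without KCl sample B. Rpl34 measured 108 and 137 against 55.0, 78.4 and 91.4, and Rps15a fell by 0.31. Of 59 respiratory chain genes, 35 rose and 2 fell (median 0.27), such as Cox6a1 at 3939 and 3615 against 2096, 2282 and 2626, and 1 was lower without KCl sample B. Of 57 ATP synthase and mitochondrial carrier genes, 22 rose and 13 fell (median 0.13), 14 being higher without KCl sample B. The phosphate carrier Slc25a3 (0.83) and the glutamate carrier Slc25a22 (0.72) rose, and Slc25a40 (-1.05) and Atp5s (-1.0) fell. The rises counted include Slc25a48, with a control mean of 7.39. It passed the filter only through stimulated samples, so its call lends no support. Of 35 proteasome subunits, 19 rose and 2 fell (median 0.19), Psmb5 by 0.66. Both falls were lost without either KCl sample, and 1 remained without the 10 h control A, the 6 h control B or the 1 h control B.

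The lysosome and autophagy list had 13 of 21 genes higher and 2 lower (median 0.28), or 1 lower without KCl sample B. The cathepsin gene Ctsl rose by 0.81, and Wipi1, of autophagosome formation, fell by 0.57. Chaperones moved little. In the endoplasmic reticulum 7 of 25 rose and 4 fell (median 0.06), or 2 lower without KCl sample B. Herpud1, of protein degradation, rose by 0.97, Sec61b by 0.59 and the stress factor Xbp1 by 0.52, while Hspa5, the chaperone BiP, measured 6978 and 5871 against 5797, 6001 and 7044 and was not called. Of 12 cytosolic heat shock genes 3 rose and 3 fell (median -0.02), or none lower without KCl sample B, with Hsp90ab1 at 0.29, Hspa8 at 0.20 and Hspa1b at -0.47, the last of them lost without KCl sample B.

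Of 357 tested genes named Zfp, zinc-finger genes of which many repress transposable elements, 167 fell (46.8%, beside 28.2% of all genes), 39 rose (10.9%, beside 29.0%) and 151 were not called (median -0.23), and 19 falls and 2 rises reached 2-fold. Zfp607b measured 116 and 126 against 315, 344 and 349, and Zfp663 measured 39.1 and 51.2 against 111, 133 and 143. Both lay below every control, by 1.48 (SE 0.10) and 1.53 (SE 0.23), and Zfp853 fell by 1.74. Zfp804a, a risk gene of schizophrenia, measured 611 and 520 against 187, 191 and 210 and rose by 1.53 (SE 0.10), and Zfp143 rose by 0.86.

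Of 19 histone deacetylase and DNA methylation genes, 5 rose (26.3%) and 4 fell (21.1%), shares below those of all genes (median 0.10). Hdac9 (chr12:34047580-34917095), a class IIa deacetylase that binds MEF2 factors, measured 1943 and 1856 against 254, 282 and 318. It rose by 2.76 (SE 0.09, adjusted p = 3.57e-15 in limma), and its relatives Hdac5 (1.24) and Hdac4 (0.52) rose with it. Tet1, which oxidises methylcytosine, fell by 0.72. Of 11 CTCF and cohesin genes, 1 rose and 4 fell (median -0.14), with Mau2 up by 0.30 and Pds5b down by 0.65, and 1 was lower without KCl sample A, where Ctcf (-0.16) was among the calls lost. Of 22 SR proteins and splicing kinases, 7 rose (31.8%) and 9 fell (40.9%), beside 29.0% and 28.2% of all genes (median 0.04). Clk3 (0.64) and Srsf5 (0.48) rose, and Srsf3 (-0.45) and the neuronal splicing factor Rbfox1, at 611 and 513 against 966, 1139 and 1200, fell.

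The clock list had 6 of 18 genes higher (33.3%) and 3 lower (16.7%), beside 29.0% and 28.2% of all genes (median 0.11). Fewer were higher without KCl sample B. Per1, a clock repressor that CREB also drives, measured 1217 and 1077 against 286, 312 and 341 and rose by 1.87 (SE 0.09), and Npas2 (1.43) and Per2 (0.74) rose, while Per3 (-0.52) fell. Dbp was called lower by 0.53, a call lost without KCl sample B. Of 22 transcription factors of cortical layers and subtypes, 6 rose and 10 fell (median -0.11). Fezf2, of deep-layer neurons, rose by 0.69 to 931 and 1029 against 576, 617 and 633 and Mef2d by 0.49. Cux2, of upper layers, fell by 0.81 to 870 and 729 against 1298, 1398 and 1486, Neurod2 by 0.79 and Bhlhe22 by 0.69.

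Of 18 apoptosis and p53 genes, 5 rose (27.8%) and 6 fell (33.3%), near the 29.0% and 28.2% of all genes (median -0.11). Hrk (chr5:118164648-118189478), a BH3-only killer protein of neurons, measured 430 and 415 against 1164, 1366 and 1431, and fell by 1.65 (SE 0.08, adjusted p = 8.35e-13 in limma). Bcl2l11, which codes for the killer protein Bim, measured 144 and 142 against 260, 306 and 351, and fell by 1.09. The cell cycle inhibitor Cdkn1a (0.79) and the pore protein gene Bax (0.59) rose. Of 18 antioxidant genes, 6 rose and 8 fell (median -0.12). The metallothionein Mt2, a zinc-binding protein abundant in glia, measured 156 and 144 against 412, 465 and 536 and fell by 1.63 (SE 0.11), Mt1 fell by 0.64, and Srxn1 and Sod1 rose by 0.71 each. Of 14 genes of NF-kB and the interferon response, 3 fell and 1 was called higher (median -0.26, Ccl2, Cxcl1, Il6 and Ifit1 not tested). Ifit2 fell by 0.76, and Nfkb1 was called lower by 0.28, a call lost without KCl sample B. The gene called higher, Irf7 at 14.7 and 9.80 against 4.15, 5.79 and 15.4, overlapped its controls and lost its call without either KCl sample or any control but the 1 h control B. In this list 6 genes, Nfkb1 not among them, were lower without KCl sample B and 5 without the 10 h control A or B or the 1 h control A.

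Of 24 receptors for monoamines, acetylcholine and adenosine, 13 rose and 4 fell (median 0.40, 2 more not tested). The serotonin receptors Htr7 (1.75) and Htr1b (1.10), the muscarinic receptor Chrm2 (1.39) and the dopamine receptor Drd1 (1.35) rose. Drd2 and Adora2a, which mark the same class of striatal neurons, measured 18.3 and 13.1 against 33.6, 51.2 and 57.1, and 55.0 and 51.2 against 105, 153 and 175, falls of 1.55 and 1.46. Of 23 tubulin and cytoskeleton genes, 6 rose (26.1%) and 4 fell (17.4%), beside 29.0% and 28.2% of all genes (median -0.03). Fewer were lower without KCl sample B. Nefl (1.01) and Nefm (0.93), neighbouring neurofilament genes with shared exon bases (32.8% of Nefl), rose, and Dcx, of immature neurons, fell by 0.47. Of 23 Wnt genes, 5 rose and 10 fell (median -0.17, Wnt10a and Dkk1 not tested), with Lgr5 (1.59) and Wnt2 (1.47) up and Wnt4 (-1.15) and Wnt7a (-0.87) down. Of 19 Notch pathway genes, 4 rose and 8 fell (median -0.13), with Maml3 (1.54) and Numb (0.62) up and Rbpj (-0.41) and Notch3 (-0.57) down, but 1 was lower without KCl sample B, where Notch3 lost its call.

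**Figure D5:**
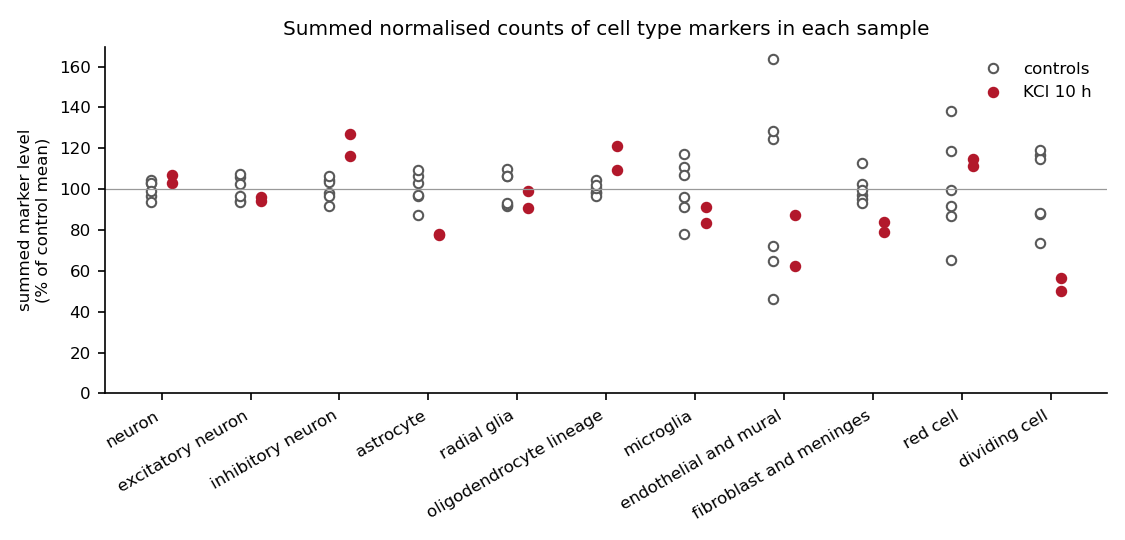
Summed normalised counts of the marker genes of each cell class as percent of the mean of the 6 controls, with the controls as open circles and KCl 10 h in red. Dividing-cell markers in the KCl samples stand at 50.3% and 56.6% and astrocyte markers at 78.1% and 77.6%, below every control, while inhibitory-neuron markers at 127% and 116% and those of the oligodendrocyte lineage at 121% and 109% stand above every control.

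All 6 markers of dividing cells fell, Mki67 from 1880, 2768 and 3508 to 1321 and 1480 (by 0.94, SE 0.18), Top2a by 0.96 and Ccna2 by 0.94, while Ccnb1 and Cdk1 lost their calls without KCl sample A. Of 5 fibroblast markers 4 fell, summing to 3094 to 3277 against 3652 to 4419. Dcn lost its call without KCl sample A, and Lum without either KCl sample, either 10 h control or the 6 h control A. Radial glia had 0 of 7 higher and 1 lower (Fabp7), the oligodendrocyte lineage 1 higher (Olig1) and 1 lower of 7, endothelial and mural cells 1 higher of 3 tested (Pecam1, lost without KCl sample A), and red cells none of 2. Of 6 microglial markers tested, Cx3cr1, a chemokine receptor, fell by 1.72 to 9.78 and 6.53 against 21.7, 29.5 and 35.2, while the other 5 were not called and the sum was 150 to 164 against 141 to 211. No marker list was at 0, and the part of these shifts in the falls of glial and Wnt or Notch genes was not tested.

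Against KCl 6 h, 2085 genes (12.9%) were higher and 1566 (9.66%) lower at 10 h. Without the 6 h sample B these counts were 1135 and 825, and without the 10 h sample A 677 and 501. Of the 7 AP-1 factors, 3 (Fosb, Fos, Junb) were lower than at 6 h and 1 (Jun, 0.30) higher, the last lost without the 6 h sample B or the 10 h sample A. Fosb measured 344 and 360 at 6 h and 75.8 and 94.8 at 10 h (log2 difference -2.04, adjusted p = 5.44e-05 in limma, or -2.01 without the 6 h sample B). It passed the filter only through stimulated samples, so this call lends no support. Fos measured 1727 and 1809 at 6 h (-0.86), Junb 669 and 489 (-1.22) and Nr4a1 1684 and 1681 (-0.73), and all 3 were called with any of the 4 samples left out, at -0.83, -1.44 and -0.73 without the 6 h sample B. Of the 19 other activity-regulated factors, 9 were lower and none higher, or 7 lower without the 6 h sample B and 5 without the 10 h sample A. Of the 15 synaptic effectors 8 were lower and none higher, with 7 and 4 lower under the same omissions. Npas4 (-0.65) and Bdnf (-0.26) did not pass this test, with or without the 6 h sample B.

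Of the 15 GABA receptor genes with gephyrin, 7 were higher at 10 h and none lower, with 5 higher without the 6 h sample B and 3 without the 10 h sample A. Gabra5 measured 1499 and 1501 at 6 h (0.42 higher at 10 h, or 0.42 without the 6 h sample B) and was called with any of the 4 samples left out. Of 22 glutamate receptors 8 were higher and none lower, but 4 higher and 1 lower without the 6 h sample B, and 3 higher without the 10 h sample A. Scn1a (0.47, or 0.25 without the 6 h sample B) lost its call without either of these samples. Hapln1 (0.79, or 0.58) and Cacna1d (0.69, or 0.45), the latter still below its controls, lost theirs without the 10 h sample A. Of 357 Zfp genes 69 were higher and 22 lower, with 30 and 14 without the 6 h sample B and 24 and 3 without the 10 h sample A. Of 24 cholesterol genes 9 were higher and none lower, with 4 and 3 higher under the same omissions. Of 75 ribosomal genes 22 were lower and none higher, but none was lower without the 6 h sample B, 2 without the 10 h sample A and 53 without the 6 h sample A. Hrk was lower again at 10 h (-0.42, or -0.32 without the 6 h sample B).

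The genes with the widest gaps between 6 h and 10 h belonged to no list but for Fosb. Zmat1 measured 15.7 and 18.5 at 6 h, 85.6 and 56.6 at 10 h and 210, 231 and 245 in controls, so it stood between the 6 h samples and the controls (1.97 above 6 h, adjusted p = 7.76e-07 in limma, or 2.08 without the 6 h sample B). Senp8, a protease of the NEDD8 modifier, followed the same order with 21.6 and 23.2, then 68.4 and 52.3, against 208, 227 and 249 (1.38, or 1.43 without the 6 h sample B). Mettl27 (1.48, or 1.31) and Ubxn11 (1.42, or 1.1) were higher at 10 h than at 6 h and were not called against controls. Npc1l1, a sterol transporter gene, measured 115 and 135 at 6 h and 11 and 42.5 at 10 h (-2.46, or -2.34 without the 6 h sample B), a call lost without the 10 h sample A. Ttc16 (-2.05, or -2.26) and Crabp2, a retinoic acid binding protein gene (-1.89, or -1.79), were lower, as was Fgd5 (-1.61, or -2.04), whose call was lost without the 10 h sample A. Npc1l1 and Crabp2 had control means of 8.42 and 9.79 and passed the filter only through stimulated samples, so their calls lend no support. The difference of Fam198b (1.49, adjusted p = 0.052 in limma) was lost when any of the 4 samples was left out.

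Against BDNF 10 h, which activates the TrkB receptor and MAP kinases, 3535 genes (21.8%) were higher and 3752 (23.1%) lower at KCl 10 h. The granins Vgf, at 9935 and 9743 after BDNF (-0.59), and Scg2, at 5766 and 5727 (0.18), did not pass this test. Their convertase Pcsk1 did, at 17 and 28 after BDNF against 517 and 562 after KCl (4.56). Adcyap1 (4.29), Npas4 (4.19), Nr4a1 (4.2), Acan (4.54), Tnn (4.89), Col10a1 (5.60) and Bdnf itself (3.62) were higher after KCl. Tnn and Col10a1 passed the filter only through stimulated samples, so their calls lend no support. Other activity genes were higher after BDNF, where Egr1 measured 2514 and 2159 against 197 and 175 after KCl (-3.64), Egr2 302 and 366 against 20.8 and 18.5 (-4.01), Arc 621 and 596 against 73.3 and 65.3 (-3.12) and Dusp6 1528 and 1638 against 479 and 381 (-1.89). Of the 15 feedback genes, 8 were lower after KCl than after BDNF and 2 higher, or 1 higher without KCl sample B or either BDNF sample. The peptide gene Gal, galanin, measured 138 and 147 after BDNF and 1.22 and 2.18 after KCl (-5.75), and the interferon-inducible genes Ifi209 (-4.02) and Ifi203 (-3.62) were lower too, all 3 having passed the filter only through BDNF samples, the call of Ifi209 against controls being lost without KCl sample A.

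Other lists also differed between the 2 stimuli. GABA receptors were higher after KCl in 12 of 15 genes and lower in 1. The lower gene, Gabbr2 (-0.49), lost its call without KCl sample B or BDNF sample A. Scn1a measured 268 and 229 after BDNF (2.75 for KCl minus BDNF), and Hdac9 300 and 246 (2.80). Protocadherins were higher after KCl in 20 of 23 genes and lower in none, with 11 higher without BDNF sample B. Cholesterol genes were higher in 17 of 24 and lower in 2, or in none without KCl sample B and 1 without BDNF sample A. Endoplasmic reticulum chaperones were lower in 15 of 25 and higher in 1, such as Hspa5 at 8636 and 9132 after BDNF (-0.47), and of 35 proteasome genes 14 were lower and none higher, with 7 lower without BDNF sample B. Arrdc3 measured 3036 and 3210 after BDNF (-2.27 for KCl minus BDNF) and Txnip 258 and 251.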

How the data were processed

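Per the labels and the study's methods, the authors aligned reads to mm10 with TopHat2, counted them per gene and divided the counts by DESeq2 size factors. The deposited RNA table thus holds a normalised signal per gene, and in all 18 columns every value came out as a whole read count times 1 factor per sample (within 0.01). The counting tool and its strand setting are not given in the sources used here. GENCODE M21 named 26162 of 26709 genes. Following the study's methods, controls of 3 times formed 1 level. Values were log2-transformed with a pseudocount of 1, genes with a mean of at least 10 were kept (16209, 60.7%), and limma 3.58.1 (R 4.3.3) with trend and robust options was fitted over 7 levels and 18 samples, two-sided, with Benjamini-Hochberg adjusted p below 0.1. Alternatives used edgeR 4.0.16 and DESeq2 1.42.0 on whole reads, other scalings, pseudocounts, filters, control sets and samples left out. On simulated data of 16209 genes for KCl 10 h against controls, limma recovered 64%, 86%, 92% and 100% of 50 genes each changed by 1.5-, 2-, 3- and 4-fold, with 23 false calls. Only these genes were changed in the simulation, whereas 57.2% of the tested genes were called in the data. Its number of false calls therefore does not carry over to the calls reported here. Tables and figures were made with Python 3.11.15, pandas 2.3.3, numpy 2.4.6 and matplotlib 3.10.9.

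Genes named were the 12 largest rises and falls against controls among called protein-coding genes with a mean of at least 50 in the higher group and no overlap between groups, the leading 2 entries of each of 47 lists with up to 4 called rises and 4 falls, and the 5 largest differences each way from KCl 6 h and BDNF 10 h. Chga, Chgb, Cpe, Cpeb3, Gabbr2, Gabra3, Gphn, Gria2, Grin2b, Nfil3, Nr4a2, Nr4a3, Pcsk1n, Pcsk2, Srebf2, Syn1 and Tac1 were named outside this rule, after their values were seen. Some genes that the rule or the lists hold are not reported by name here and stay in the list counts. The members and lists were chosen with earlier results of these data known. The accessibility data and the authors' tables of fold changes and p-values were not used.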

Additional observations from a re-analysis of the deposited data

Results flagged for a closer look

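For the 352 named genes, the lowest or highest of the 6 controls was set against the other 5 by Dixon's test at the 95% level, which chance alone passes in about 1 in 20 groups. It was passed by 22 genes (6.25%), of which 10 had the 10 h control A as the sample apart, 5 the 1 h control A, 4 the 6 h control B, 2 the 1 h control B and 1 the 10 h control B. In the 10 h control A the low values were those of Bdnf (38.5 normalised counts), Atp2b2 (1430), Cadm1 (6590), Ephb2 (1556), Cacna1i (286), Klf10 (193), Kcnj12 (48.1) and Txnip (519), and the high ones those of Srsf2 (3548) and Tra2b (1668). In the 1 h control A, the deepest library, Sv2c (90.6), Dcc (253), Ctcf (1324), Pds5a (468) and Fgf1 (69.9) were low. The 6 h control B was low for Tnn (0) and Zfp663 (111) and high for Dusp6 (288) and Lamp1 (4624). In the 1 h control B Irf7 (15.4) was high and Zfp607b (315) low, and the 10 h control B was high for Zfp853 (61.7). The KCl samples of Bdnf and Txnip lay outside the full control range all the same, whereas those of Kcnj12 and Irf7 lay partly within it.

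For 4 named genes the difference from the controls was called in opposite directions at KCl 6 h and KCl 10 h, and the difference between both times, tested in limma, was called as well. Dcc was 1.18 higher at 10 h than at 6 h, at 455 and 377 against 204 and 162 (1.02 without the KCl 6 h sample B). Egr1 was lower at 10 h (-0.63, or -0.74 without that sample), as were Pdgfa (-0.73, or -0.50) and Fxyd7 (-0.72, or -0.46), the last of which lost this call without the KCl 6 h sample B. Both comparisons share the 6 controls. The calls of Dcc, Egr1 and Fxyd7 against controls at KCl 10 h did not hold in every fit. With the 10 h controls only they were lost, at 0.15 for Dcc, -0.20 for Egr1 and -0.28 for Fxyd7. Dcc was at 0.14 without the KCl 10 h sample A, and Egr1 at -0.17 without the KCl 10 h sample B. For these genes the opposite directions at KCl 6 h and KCl 10 h are therefore not firm.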

How the results depend on the processing

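At an adjusted p below 0.01, KCl 10 h against controls gave 3111 genes higher and 3005 lower, against KCl 6 h 680 and 347, and against BDNF 10 h 2025 and 2136. Leaving out 1 sample gave 3719 to 4728 genes higher and 3445 to 4574 lower against controls, 677 to 2799 and 501 to 2245 against KCl 6 h, and 2701 to 2922 and 2761 to 3343 against BDNF 10 h. Against KCl 6 h the lowest counts were those without the KCl 10 h sample A, and without the KCl 6 h sample B they were 1135 and 825. Against controls, edgeR on whole reads called 4629 higher and 4537 lower, DESeq2 4311 and 4155, edgeR with TMM scaling, chosen after seeing the data, 4634 and 4536, limma with TMM scaling 4643 and 4639, and limma with the 10 h controls only 3764 and 3730. TMM scaling moved the median of all genes by -0.006. With the letters A and B as a replicate block the counts were 4777 and 4644 against controls, 2184 and 1637 against KCl 6 h, and 3669 and 3826 against BDNF 10 h. These letters are not in the labels, and deviations of same-lettered samples correlated at -0.31 to 0.42, above 0.1 in 13 of 36 pairs of groups, so they are not taken as a pairing. Of the 352 named genes, 332 were called against controls and 265 of these were called under every alternative but the stricter threshold; of 7001 alternative values 262 lost the call, 10 gained it and none reversed. Of 1786 list counts, 82 moved by over 1.5 times. With the 10 h controls only, 23 Zfp genes were higher and Egr1 was not called (-0.20), and with a mean of at least 50 required, 7 neuropeptide genes were higher. The causes of these shifts were not tested beyond the smaller number of samples or genes. At 8508452 to 36699187 reads a sample, differences of genes near the filter of 10 normalised counts rest on few reads.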
